A study of Drosophila melanogaster with 24 samples.

Results

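The 9 genes described here encode enzymes of glycolysis and of sugar phosphate metabolism in Drosophila melanogaster: Hex-A, Pgi, Ald1, Gapdh1, Pgk, Pglym78, Eno, fbp and Pgm1. They were found by their symbol in the platform annotation of the Affymetrix DrosGenome1 array. Each symbol had 1 probe set (144761_at for Hex-A, 152515_at for Pgi, 154814_at for Ald1, 154244_at for Gapdh1, 143301_at for Pgk, 152504_at for Pglym78, 143150_at for Eno, 151797_at for fbp and 154763_at for Pgm1), and all 9 genes were among the 5736 genes or probe sets tested. The study asked how the Notch pathway and the receptor tyrosine kinase pathway through Ras share transcriptional targets. All embryos came from mothers homozygous for arm-GAL4, a yeast transcription factor driven by the armadillo promoter, which is active in most embryonic cells at moderate levels. Fathers carried UAS-NotchICD (the Notch cross), UAS-Ras85D(V12) (the Ras cross), both transgenes (the combined cross), or no transgene (w1118, the control cross). NotchICD, the inner domain of Notch, acts without ligand, and Ras85D(V12) is a constitutively active Ras protein. Whole embryos were frozen 7 to 8 h after egg lay (late, stages 11 to 12) or from 5 h 45 min to 6 h 45 min after it (early, stages 10 to 11). Each of the 8 groups had 3 arrays, and the RNA came from pooled embryos of separate collections. Genome positions are not given, since no genome build is named in the sources used here.

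Glycolysis splits glucose into pyruvate in a fixed chain of reactions. Its first enzymes spend ATP to make sugar bisphosphates, and its later ones return ATP and NADH. Fructose bisphosphatase runs 1 step of the chain in reverse for the making of new glucose, and phosphoglucomutase joins the chain to glycogen and to trehalose, the main blood sugar of insects. In Drosophila, glycolytic genes are known to be switched on together in mid-embryogenesis under the nuclear receptor ERR.

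Values are deposited log2 GCRMA levels, so a difference of 1 is a doubling, and errors of log2 changes are standard errors of a limma fit over all 24 arrays. Calls needed an adjusted p under 0.05 (Benjamini-Hochberg over all 5736 rows of a comparison). Array medians lay between 4.04 and 4.22, and each array had 5369 to 5677 probe sets at 5 or more. A row was tested if it reached 5 in at least 3 arrays. Eno, Pglym78, Pgi and Ald1 did so in all 24 arrays and Gapdh1 in 23. The other members were dimmer: Pgm1 reached 5 in 6 arrays, Pgk in 4, Hex-A in 3 and fbp in 3, in each case late arrays only. For fbp these were the 3 late control arrays, for Pgm1 all late control and Notch arrays, for Hex-A 2 late control arrays and 1 late Ras array, and for Pgk 2 late control and 2 late Ras arrays. These 4 genes entered the test only through groups in which they were high, and their counts below are read with that limit. With no filter on dim probe sets, each of the 4 kept the same calls. That fit holds the same values of these genes, so it cannot lift this limit. Levels of different probe sets are not compared with each other. The transgenes were not analysed here, so the labels were not checked against them. Replicate 3 of the late control and late Ras groups stood apart from replicates 1 and 2 in muscle genes and in several members, and results are given without it where that matters.

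In control embryos all 9 genes rose between the windows. The largest rise was that of fbp, by 2.43 ± 0.28 log2 units (a 5.38-fold change), followed by Eno with 1.77 ± 0.18 (3.41-fold) and Pgm1 with 1.31 ± 0.16 (2.49-fold). The other rises ran from 0.33 ± 0.10 for Pgi to 0.92 ± 0.15 for Gapdh1. Of all rows tested, 18.3% were called higher in this comparison, and the median change was 0.82 over the 9 members and -0.00 over all rows. Higher calls made up 58.3% of all calls, and 46.8% after quantile normalisation. For all 9 genes the 3 late arrays lay above the 3 early ones, which held for 24.2% of all rows. Of these genes, fbp, Pgm1, Hex-A and Pgk passed the filter only through late arrays, so their part in both counts is no support. Eno, Pglym78, Pgi, Ald1 and Gapdh1, which passed it without those arrays, were all called and their groups did not overlap. In whole embryos, more cells expressing a gene and more RNA per cell cannot be told apart.

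Among the enzymes of the first steps, Hex-A encodes hexokinase, which traps glucose in the cell as a phosphate. It read 4.91, 5.42 and 5.36 in late control arrays, against 4.34, 4.49 and 4.40 in early ones. The late values did not overlap the early ones, and the rise was 0.82 ± 0.16 (adjusted p = 0.00039). Ald1 encodes aldolase, which cleaves fructose bisphosphate into a pair of triose phosphates. Its probe set read 9.22, 9.21 and 8.80 in late control arrays, against 8.23, 8.48 and 8.42 in early ones. The third late array was the lowest of its group and still stood above every early array, with a rise of 0.70 ± 0.22 (adjusted p = 0.019). Pgi encodes glucose phosphate isomerase, which turns glucose phosphate into fructose phosphate. It read 6.76, 6.87 and 6.91 in late control arrays and 6.61, 6.54 and 6.40 in early ones, a rise of 0.33 ± 0.10 (adjusted p = 0.020). The Ald1 call was lost without early replicate 1, late replicate 1 or late replicate 2 (adjusted p 0.066 to 0.072), and that of Pgi without early replicate 3, late replicate 2 or late replicate 3 (0.055 to 0.099). The Pgi call was also lost with arrays centred on their medians (0.058) or made equal by quantiles (0.066).

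Of the enzymes that return energy, Gapdh1 encodes the dehydrogenase that yields NADH. It read 6.02, 6.27 and 5.71 in late control arrays, against 5.23, 5.09 and 4.93 in early ones, a rise of 0.92 ± 0.15 (adjusted p = 7.7e-05). Pgk encodes phosphoglycerate kinase, the first enzyme of the chain to make ATP. Its levels were 5.21, 5.25 and 4.96 in late control arrays and 4.89, 4.63 and 4.60 in early ones, and the rise was 0.43 ± 0.11 (adjusted p = 0.0059). Pglym78 encodes phosphoglycerate mutase, which moves the phosphate group within the molecule. It read 6.81, 6.81 and 6.49 in late control arrays and 6.12, 6.05 and 6.13 in early ones, a rise of 0.60 ± 0.13 (adjusted p = 0.0014). Eno encodes enolase, which makes phosphoenolpyruvate. Late control arrays gave 7.46, 7.69 and 7.14 for Eno, against 5.77, 5.60 and 5.61 in early control arrays (adjusted p = 3.1e-07). Late replicate 3 was the lowest late array for all 4 of these genes.

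Beside the forward chain, fbp encodes fructose bisphosphatase. It read 5.92, 6.04 and 5.27 in late control arrays, against 3.14, 3.38 and 3.44 in early ones (adjusted p = 1.5e-06). The gap between the lowest late and the highest early array was larger than the spread within either group. Pgm1 encodes phosphoglucomutase, the link to stored sugar, and read 5.63, 5.96 and 5.92 in late control arrays and 4.59, 4.48 and 4.50 in early ones (adjusted p = 2.4e-06). No early array of any cross reached 5 for fbp or for Pgm1. The plot of member levels by array shows each of these values.

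**Figure D1:**
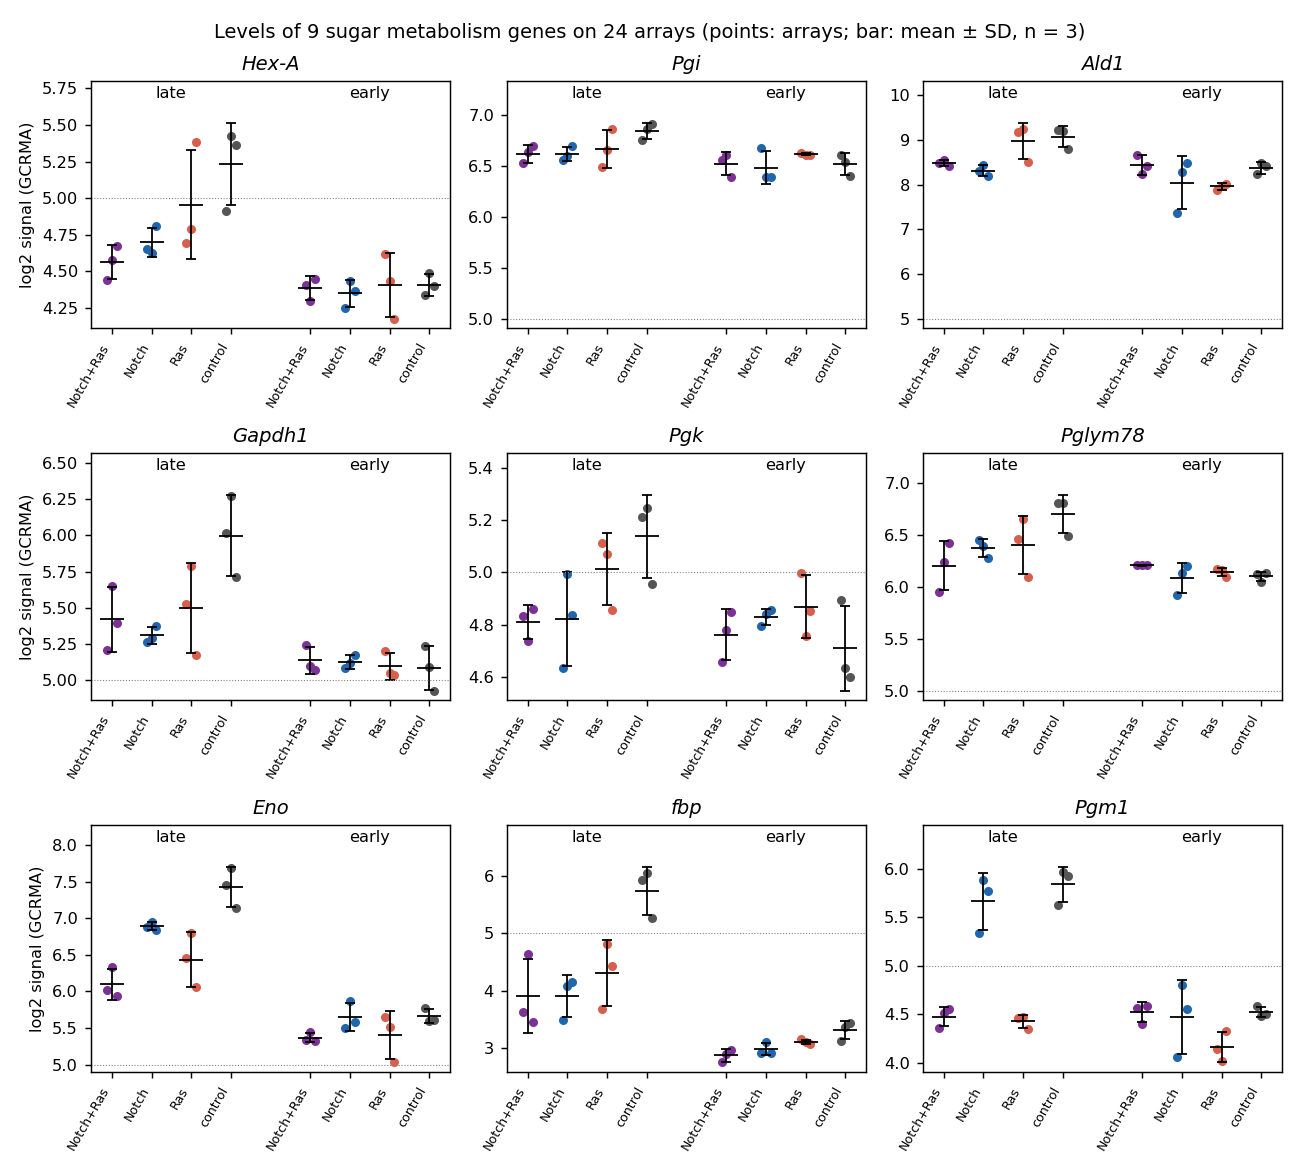
Log2 level of each of the 9 genes (1 panel per gene, y axis in log2 units) in every array, with crosses along the x axis (late left of early; Notch+Ras is the combined cross), points for arrays, bars for the mean ± SD (n = 3) and a dotted line at 5. The late control arrays hold the highest group mean in all 9 panels, and Pgm1 is split into high late control and Notch arrays and low late Ras and combined arrays.

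The rise between windows called fewer members in each transgenic cross than in control embryos. In Notch embryos 3 of the 9 rose: Eno by 1.24 ± 0.18, Pgm1 by 1.19 ± 0.16 and fbp by 0.92 ± 0.28 (adjusted p = 2.3e-05, 9.1e-06 and 0.016). In that comparison 18.4% of all rows were called higher, and the median change was 0.29 over the members and 0.07 over all rows. Higher calls were 64.9% of all calls there, 50.5% with arrays centred on their medians and 50.0% after quantile normalisation. Pgk was the member with a change nearest to 0 there, with 4.63, 4.99 and 4.84 in late Notch arrays and 4.79, 4.84 and 4.86 in early ones. The change of Gapdh1 was 0.19 ± 0.15 (adjusted p = 0.38), although its 3 late Notch arrays lay above the 3 early ones. The fbp call was lost without late Notch replicate 2 or 3 (adjusted p 0.062 to 0.078).

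In Ras embryos 5 of the 9 rose, against 17.8% of all rows (higher calls were 62.5% of calls, and 44.6% after quantile normalisation). These were Eno by 1.04 ± 0.18, Ald1 by 1.02 ± 0.22, fbp by 1.20 ± 0.28, Hex-A by 0.55 ± 0.16 and Gapdh1 by 0.40 ± 0.15 (adjusted p = 0.00018, 0.0015, 0.0028, 0.012 and 0.047). Ald1 read 9.18, 9.24 and 8.52 in late Ras arrays, against 7.88, 7.98 and 8.02 in early ones. Pgm1 read 4.46, 4.48 and 4.35 in late Ras arrays, against 4.14, 4.02 and 4.33 in early ones. That change of 0.26 ± 0.16 did not pass (adjusted p = 0.22). The Gapdh1 call was lost without any 1 of the 6 arrays other than late Ras replicate 3 (adjusted p 0.057 to 0.25). That of Hex-A was lost without early or late Ras replicate 3 (0.076 to 0.089), and Pglym78, with 0.26 ± 0.13, was called without late Ras replicate 3 (0.021). Fitted on these 6 arrays alone, Hex-A and Gapdh1 were not called, which left 3.

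In combined embryos 2 of the 9 rose, where 20.3% of all rows did (higher calls were 61.1% of calls, and 50.2% after quantile normalisation): Eno by 0.73 ± 0.18 and fbp by 1.03 ± 0.28 (adjusted p = 0.0036 and 0.0072). Eno read 6.02, 6.33 and 5.94 in late combined arrays, against 5.34, 5.44 and 5.33 in early ones. Pgm1 did not pass in combined embryos, with 4.36, 4.51 and 4.55 late and 4.57, 4.40 and 4.59 early, a change of -0.04 with a 95% interval from -0.37 to 0.28. Pglym78 changed by -0.00 ± 0.13 there. For fbp the late combined arrays read 3.64, 4.65 and 3.46, and without the second of them the call was lost (adjusted p = 0.065). The plot of changes between windows sets the 4 crosses beside each other.

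**Figure D2:**
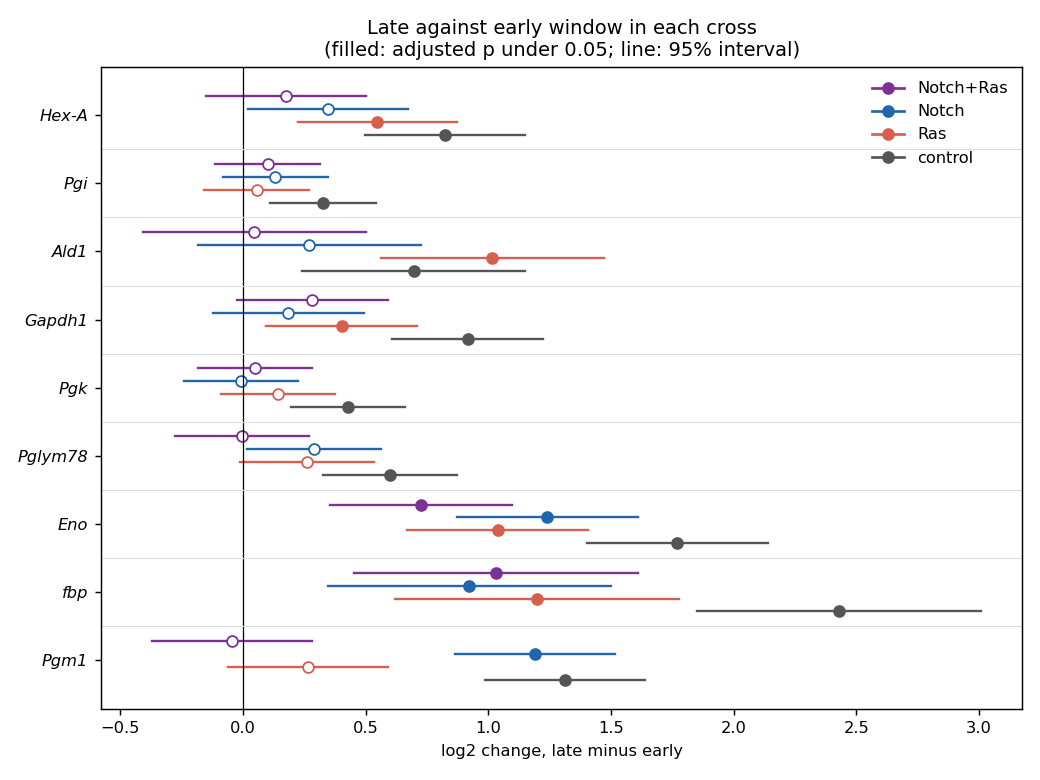
Late minus early change in log2 units (x axis) with 95% intervals for each of the 9 genes (y axis) in the 4 crosses, filled points being called at an adjusted p under 0.05. All 9 control points are filled, against 3 for Notch, 5 for Ras and 2 for combined embryos.

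The difference between crosses in this rise was tested directly, as the window change of a transgenic cross minus that of control embryos. In combined embryos it was negative for all 9 genes and called for 2, Eno with -1.04 ± 0.25 (adjusted p = 0.028) and Pgm1 with -1.36 ± 0.22 (adjusted p = 0.0011), where 1.38% of all rows were called lower. With the replicate number as a block within each window, 5 were called: Hex-A (-0.65, adjusted p = 0.042), Gapdh1 (-0.63, 0.033) and fbp (-1.40, 0.0077) were added. Here and below, shares of all rows called are those of the fit without the block. Counts with the block or with arrays left out have no such share beside them. The Eno call was lost without any 1 of 9 of the 12 arrays (adjusted p 0.051 to 0.092). It held without early control replicate 1, late control replicate 3 or late combined replicate 2. Without late control replicate 3, Pglym78 (-0.60 with all arrays), Gapdh1 and fbp were called as well (adjusted p = 0.043, 0.043 and 0.0078), and without late combined replicate 2 fbp was (0.026).

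In Notch embryos the difference from the control rise was negative for all 9 genes and none was called, with 5 at an unadjusted p under 0.05, as for 10.5% of all rows. With the block 2 were called, Gapdh1 (-0.73 ± 0.21, adjusted p = 0.017, against 0.098 without the block) and fbp (-1.50 ± 0.39, 0.0064 against 0.059). The same 2 were called without late control replicate 3 (adjusted p = 0.027 for Gapdh1 and 0.022 for fbp). In Ras embryos it was negative for 8 of 9, and none was called, with 4 at an unadjusted p under 0.05 (3.73% of all rows). Pgm1 had the smallest adjusted p there, 0.078, at -1.05 ± 0.22, and was called with the block (0.029) or without late control replicate 1 (0.047). Of all rows, 1.06% were called lower in the Notch and 0.0349% in the Ras test of the rise. In the Notch test higher calls were 33.7% of calls, and 20.8% with arrays centred on their medians; in the Ras test, with 4 calls in all, they were 50.0%, and 33.3% after quantile normalisation. These tests share the 6 control arrays.

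Late levels of the 9 genes were below control in every transgenic cross by their means, and 5, 3 and 6 of them passed the test in Notch, Ras and combined embryos. Among those called, fbp, Pgm1 and Hex-A had passed the filter only through late arrays, late control among them. The other members called were Gapdh1, Ald1 and Eno in Notch, Eno in Ras, and Eno, Gapdh1 and Pglym78 in combined embryos. The 3 comparisons share the late control arrays, which also enter the control rise, so they are not independent of each other or of that rise. In Notch embryos 5 of 9 were called lower, against 7.5% of all rows. These were fbp (-1.83 ± 0.28, adjusted p = 6.5e-05), Gapdh1 (-0.69 ± 0.15, 0.0023), Ald1 (-0.76 ± 0.22, 0.022), Hex-A (-0.54 ± 0.16, 0.024) and Eno (-0.54 ± 0.18, 0.049). The median change was -0.54 over the members and 0.01 over all rows. For 7 of the 9 the Notch arrays lay below all control arrays, as for 13.2% of all rows.

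For Gapdh1 the late Notch arrays read 5.26, 5.29 and 5.38, against 6.02, 6.27 and 5.71 in late control arrays. The Notch values were close together and all were below the lowest control array. Late Notch arrays gave 8.31, 8.45 and 8.20 for Ald1, against 9.22, 9.21 and 8.80 in late control arrays, again with no overlap. Hex-A read 4.65, 4.63 and 4.81 in late Notch embryos and 4.91, 5.42 and 5.36 in late control embryos, where replicate 1 was the low one. Eno read 6.89, 6.95 and 6.85 in late Notch arrays and 7.46, 7.69 and 7.14 in late control arrays, and fbp 3.50, 4.09 and 4.16 against 5.92, 6.04 and 5.27. Pgm1 read 5.33, 5.89 and 5.77 in late Notch arrays and 5.63, 5.96 and 5.92 in late control arrays. The groups overlapped and the change was -0.18, with a 95% interval from -0.50 to 0.15 (adjusted p = 0.54). Pgk (-0.32 ± 0.11, adjusted p = 0.067), Pglym78 (-0.33 ± 0.13, 0.11) and Pgi (-0.23 ± 0.10, 0.17) did not pass.

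Of the calls in Notch embryos, those of fbp and Gapdh1 held whichever array was left out. The Eno call was lost without any 1 of the 6 arrays other than control replicate 3 (adjusted p 0.084 to 0.22). That of Hex-A was lost when replicate 2 or 3 of control, or replicate 1 or 2 of Notch, was left out (0.070 to 0.12), and that of Ald1 when replicate 1 or 2 of control, or replicate 1 or 3 of Notch, was (0.057 to 0.089). Pgk was called without control replicate 3 or Notch replicate 2 (0.027 to 0.034), and Pglym78 without control replicate 3 (0.045). Eno and Hex-A were also not called when only these 6 arrays (adjusted p = 0.078 and 0.087) or only late arrays (0.11 and 0.094) were fitted, which left 3 of the 5. For Eno the call was further lost after quantile normalisation (0.079), with no filter on dim probe sets (0.066), with a filter at 4 (0.054) and with every probe set on its own row (0.0502).

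In Ras embryos 3 of 9 were called lower, against 1.06% of all rows: Pgm1 (-1.41 ± 0.16, adjusted p = 9.7e-06), Eno (-0.99 ± 0.18, 0.0024) and fbp (-1.43 ± 0.28, 0.0050). Pgm1 read 4.46, 4.48 and 4.35 in late Ras arrays, against 5.63, 5.96 and 5.92 in late control arrays. The late Ras values were in the range of the early arrays of all crosses, from 4.02 to 4.80. For Eno the late Ras arrays read 6.46, 6.80 and 6.06, all below the control values of 7.46, 7.69 and 7.14. Late Ras arrays gave 3.68, 4.82 and 4.43 for fbp, against 5.92, 6.04 and 5.27 in late control arrays. For these 3 genes the groups did not overlap, as for 5.07% of all rows in that direction, and for the other 6 they did.

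Ald1 read 9.18, 9.24 and 8.52 in late Ras arrays and 9.22, 9.21 and 8.80 in late control arrays. Its change was -0.10, with a 95% interval from -0.55 to 0.36 (adjusted p = 0.98). Gapdh1 read 5.52, 5.79 and 5.17 in late Ras arrays and 6.02, 6.27 and 5.71 in late control arrays, -0.50 ± 0.15 (adjusted p = 0.091). In each same-numbered pair of late arrays Gapdh1 was lower in the Ras array, and with the replicate number as a block Gapdh1 was called (adjusted p = 0.018), as it was without control replicate 3 (0.028) or Ras replicate 2 (0.030). Hex-A (-0.28 ± 0.16), Pglym78 (-0.30 ± 0.13), Pgi (-0.17 ± 0.10) and Pgk (-0.12 ± 0.11) had adjusted p-values of 0.409 or more. When only the 6 arrays compared were fitted, Pgm1 alone remained called, and Eno and fbp had an adjusted p of 0.16. In a fit of the late arrays alone fbp was not called either (0.099).

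In combined embryos 6 of 9 were called lower, against 7.51% of all rows. They were fbp (-1.83 ± 0.28, adjusted p = 5.5e-05), Pgm1 (-1.36 ± 0.16, 1.5e-06), Eno (-1.33 ± 0.18, 1.1e-05), Hex-A (-0.67 ± 0.16, 0.0043), Gapdh1 (-0.58 ± 0.15, 0.0089) and Pglym78 (-0.50 ± 0.13, 0.012). The combined arrays lay below all control arrays for all 9 genes, as for 12.2% of all rows. Late combined arrays gave 6.02, 6.33 and 5.94 for Eno, against 7.46, 7.69 and 7.14 in late control arrays. Pgm1 read 4.36, 4.51 and 4.55 in late combined embryos and 5.63, 5.96 and 5.92 in late control embryos. For Hex-A the values were 4.44, 4.58 and 4.67 in late combined arrays, against 4.91, 5.42 and 5.36 in late control arrays. Pglym78 read 5.95, 6.24 and 6.43 in late combined arrays and 6.81, 6.81 and 6.49 in late control arrays, with the third arrays of both groups close together.

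Ald1 (-0.59 ± 0.22, adjusted p = 0.079) and Pgk (-0.33 ± 0.11, 0.053) missed the threshold in combined embryos and passed it with the replicate block (0.031 and 0.042), and Pgi did not pass (-0.22 ± 0.10, 0.17). The Pglym78 call was lost without control replicate 1 or 2 or combined replicate 1 (adjusted p 0.056 to 0.086), and that of Gapdh1 without control replicate 2 or combined replicate 1 (0.060 to 0.075). Without control replicate 3, Pgk (0.020) and Ald1 (0.047) were called too. Both Pglym78 and Gapdh1 were not called when only the 6 arrays compared (0.10 and 0.091) or only late arrays were fitted (0.078 and 0.063). The plot of late changes shows the 3 crosses.

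**Figure D3:**
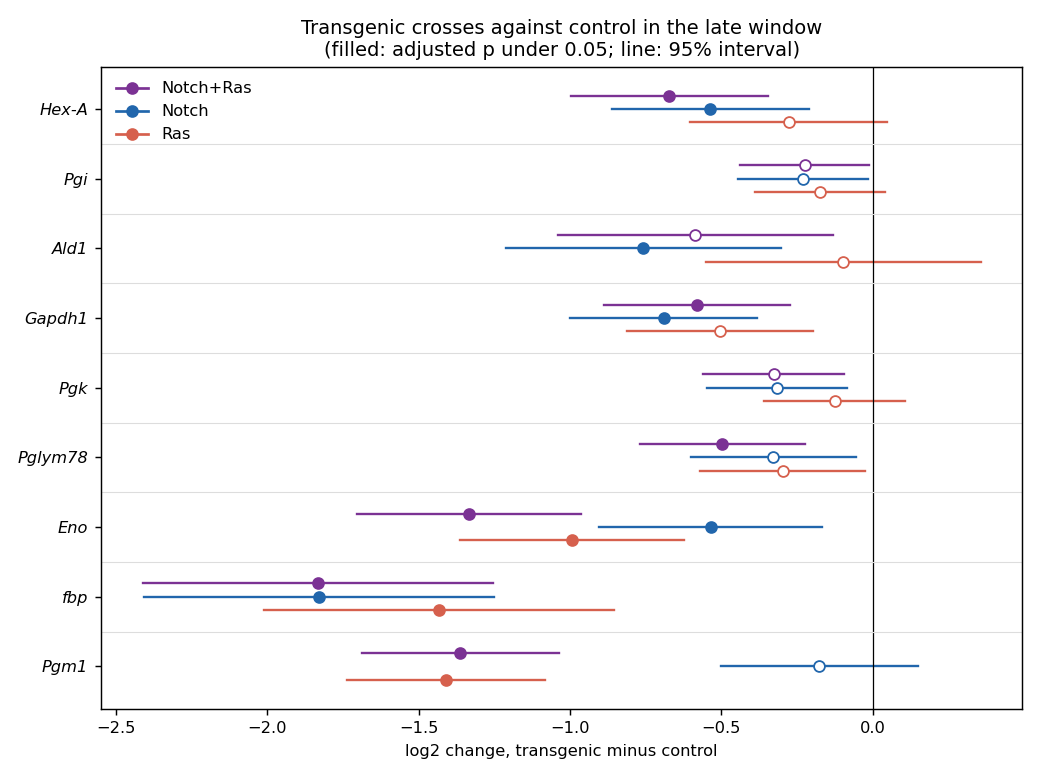
Late change against control in log2 units (x axis) with 95% intervals for each of the 9 genes (y axis) in Notch, Ras and combined embryos, filled points being called at an adjusted p under 0.05. All points are below 0, fbp and Eno are filled in all 3 crosses, and Pgm1 is filled in Ras and combined embryos.

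The crosses were then set against each other in the late window. Pgm1 was lower in Ras than in Notch embryos by 1.23 log2 units (-1.23 ± 0.16, adjusted p = 6.4e-06), and lower in combined than in Notch embryos (-1.19 ± 0.16, 0.00010). Between combined and Ras embryos it differed by 0.05, with a 95% interval from -0.28 to 0.37. Eno was lower in combined than in Notch embryos (-0.80 ± 0.18, adjusted p = 0.017). Its change in Ras against Notch embryos was -0.46 ± 0.18 (0.095), with 6.46, 6.80 and 6.06 in Ras arrays below the 6.89, 6.95 and 6.85 of Notch arrays. That difference was called with the replicate block (0.016), without Ras replicate 2 (0.024) or without the filter on dim probe sets (0.045). Ald1 was higher in Ras than in Notch embryos (0.66 ± 0.22, adjusted p = 0.046). The Ald1 call was lost without any 1 of the 6 arrays other than Ras replicate 3 (0.065 to 0.19), after quantile normalisation (0.053), with a filter at 4 (0.0502) and with only these 6 arrays (0.11).

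In these comparisons 14.9% of all rows were called between Ras and Notch, 1.06% were called lower in combined than in Notch embryos and 11.3% were called between combined and Ras embryos. Higher calls were 55.5% of calls between Ras and Notch, and 66.8% with arrays centred on their medians. Between combined and Notch they were 41.9%, and 54.2% with that centring. No member was called between combined and Ras embryos, with 2 at an unadjusted p under 0.05 (22.3% of all rows). Hex-A was called there with the block (-0.39 ± 0.16, adjusted p = 0.039, against 0.12 without it) or without Ras replicate 1 (0.049), and Ald1 (-0.49 ± 0.22) without Ras replicate 3 (0.037). The Eno difference between combined and Notch embryos was lost without Notch replicate 2 or 3 or combined replicate 1 or 3 (adjusted p 0.055 to 0.10). The comparison of Ras with Notch embryos was added after the changes against control had been seen.

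The interaction asked whether the combined effect in the late window departs from the sum of the Notch and Ras effects on the log2 scale. It was above 0 for all 9 genes and called for none, while 0.227% of all rows were called. The median was 0.19 over the members and 0.01 over all rows. Late control enters the interaction with a plus sign and was the highest group mean of every member. The shared sign is therefore not independent of the late control level, and nothing is concluded from it. At an unadjusted p under 0.05 there were 2 members and 4.85% of all rows. For fbp it was 1.43 ± 0.39 (adjusted p = 0.28), with changes against control of -1.83 in combined, -1.83 in Notch and -1.43 in Ras embryos. With the replicate block fbp was called (0.034). Gapdh1 had 0.61 ± 0.21 (adjusted p = 0.65). For Pgm1 the interaction was 0.22 ± 0.22 and for Eno 0.19 ± 0.25 (both with an adjusted p of 0.998), with an interval for Eno from -0.33 to 0.72.

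In the early window no member was called against control in Notch, Ras or combined embryos, where 5.42%, 0.366% and 6.96% of all rows were called. At an unadjusted p under 0.05 there were 0, 1 and 0 members, against 12.6%, 5.3% and 18.1% of all rows. The 1 member was Pgm1 in Ras embryos. It read 4.14, 4.02 and 4.33 in early Ras arrays, against 4.59, 4.48 and 4.50 in early control arrays (-0.36 ± 0.16, adjusted p = 0.83). For fbp, early combined arrays read 2.76, 2.90 and 2.98 and early control arrays 3.14, 3.38 and 3.44, a change of -0.44 ± 0.28 (adjusted p = 0.46). That change was called when only these 6 arrays (0.037) or only early arrays (0.019) were fitted. Early Ald1 arrays of the Notch cross ranged from 7.37 to 8.49, and its change of -0.33 ± 0.22 did not pass.

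The 9 genes shared much of their pattern over the 8 groups. Control late was the highest group mean for every one of them. For Eno the order below it was late Notch (6.89 ± 0.05, SD, n = 3), late Ras (6.44 ± 0.37) and late combined (6.10 ± 0.21), and then the 4 early groups between 5.37 and 5.66. Arrays of late Notch overlapped neither those of late control above nor those of late Ras below, late Ras and late combined overlapped, and the early groups overlapped their neighbours. For fbp late control (5.74 ± 0.42) stood clear of late Ras (4.31 ± 0.58), late Notch (3.92 ± 0.36) and late combined (3.91 ± 0.64), which overlapped in turn. All late fbp arrays were above all early ones, but by little in 2 crosses. The lowest late combined array read 3.46 and the lowest late Notch array 3.50, against 3.44 for the highest early control array. For Pgm1 late control (5.84 ± 0.18) and late Notch (5.66 ± 0.29) overlapped and stood clear of the other 6 groups, whose means ran from 4.16 to 4.52.

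As a description, the correlation of each member's 8 group means with the mean of the other members (each standardised) was 0.982 for Hex-A, 0.979 for fbp, 0.978 for Pglym78 and 0.967 for Gapdh1. It was lower for Pgk (0.849), Ald1 (0.803) and Pgm1 (0.703). The points share the 24 arrays and their normalisation. By the same measure, the 8 other genes most like the mean of the members were emp (r = 0.998), Neurochondrin (0.992), CG7294 (0.988), CG7296 (0.986), CG11905 (0.977), cher (0.974), PCB (0.971) and viaf (0.968). Their rises in control embryos ran from 0.35 for viaf to 3.15 for CG7296. PCB encodes pyruvate carboxylase, and cher encodes filamin, an actin crosslinker.

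Other genes of sugar metabolism were followed in lists by pathway. Of 10 other glycolytic enzymes 4 had a named probe set and none reached the filter: Pfk, phosphofructokinase, read between 3.65 and 4.49 over all arrays, and Hex-C, Hex-t2 and Pglym87 were dim as well. In the limma fit with no filter none of them was called between the windows in control embryos. Pfk changed by 0.25 (adjusted p = 0.24), Hex-C by -0.08 (0.26), Hex-t2 by -0.11 (0.22) and Pglym87 by -0.15 (0.26). Of 7 measured genes of the branches to glycerol phosphate and from pyruvate, 3 rose and 1 fell in control embryos between the windows (median change 0.32, against -0.00 over all rows). Pepck2, a phosphoenolpyruvate carboxykinase, rose by 1.24 ± 0.20, PCB by 1.00 ± 0.15 and Men, the malic enzyme, by 0.73 ± 0.13, while Pepck1 fell by 0.64 (-0.64 ± 0.15). Against late control, Pepck2 and PCB were lower in Notch (-0.84 ± 0.20 and -0.71 ± 0.15) and in combined embryos (-1.51 ± 0.20 and -0.69 ± 0.15), and Men in combined embryos (-0.42 ± 0.13). Pepck2 was already lower in early combined embryos (-1.28 ± 0.20, adjusted p = 0.00014) and Men in early Notch embryos (-0.64 ± 0.13, 0.0019). Between the windows Pepck2 rose by 1.00 ± 0.20 in Notch and 1.02 ± 0.20 in combined embryos. PCB was not called there (0.39 ± 0.15 and 0.25 ± 0.15). None of the 7 was called in late Ras embryos (Pepck2 -0.28 ± 0.20, PCB -0.31 ± 0.15). The enzyme Gpdh1, which makes glycerol phosphate, changed by -0.06 ± 0.25 in control embryos between the windows.

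Of 6 measured genes of glycogen and trehalose metabolism, 3 rose in control embryos (median change 0.36): Tret1-1, a trehalose transporter, by 1.19 ± 0.18, Glyp, glycogen phosphorylase, by 0.62 ± 0.23 and UGP, which makes UDP-glucose, by 0.39 ± 0.14. Tret1-1 was lower in late Notch (-0.81 ± 0.18) and combined embryos (-0.84 ± 0.18), with 0.34 ± 0.18 in Ras embryos (adjusted p = 0.57). It was already lower in early Notch embryos (-1.21 ± 0.18, adjusted p = 8.9e-05). In early combined embryos 2 of the 6 genes of this list were called lower than control. Between the windows Tret1-1 rose by 1.59 ± 0.18 in Notch and 1.32 ± 0.18 in combined embryos, no less than in control embryos. Tps1, trehalose phosphate synthase, did not pass between the windows in control embryos (0.16 ± 0.15). It was lower than in late control in Notch (-0.52 ± 0.15), Ras (-0.66 ± 0.15) and combined embryos (-0.62 ± 0.15). None of 3 measured genes of the pentose phosphate pathway was called in the control rise or against late control, among them Rpe (0.05 ± 0.22 in control embryos) and Taldo, transaldolase (0.66 ± 0.28, adjusted p = 0.072). Taldo was called higher between the windows in Notch (1.24 ± 0.28, adjusted p = 0.0019) and combined embryos (1.48 ± 0.28, 0.00037), and not in Ras embryos (0.64 ± 0.28, 0.089).

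Of 2 measured sugar transporter genes, sut1 was higher in late Notch embryos (0.65 ± 0.11) and nebu lower in late combined embryos (-0.45 ± 0.15), and neither was called between the windows in control embryos. Of 6 measured regulators none was called in that comparison. A further regulator, sug, a sugar-responsive transcription factor, read from 2.46 to 5.34 and stayed below the filter; in the fit with no filter it rose by 1.93 in control embryos (adjusted p = 7.1e-05). ERR changed by 0.21 ± 0.11 (adjusted p = 0.16) there, and by -0.07, 0.22 and -0.07 in late Notch, Ras and combined embryos. Mondo, a sugar-sensing transcription factor, was lower in late combined embryos (-0.33 ± 0.10, adjusted p = 0.026). Lists of this size are given by their counts alone. For genes higher in the control rise or lower than late control, the shares over all rows were those given above for the members. For falls between the windows and for genes higher than late control, here and among the tissue markers below, no share over all rows is given. Those counts have no background beside them.

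Markers of other tissues were followed in the same comparisons, and some moved with the members while others did not. All 9 measured muscle genes of 15 listed rose in control embryos between the windows (median 1.14), and 2, 1 and 6 of them were lower than control in late Notch, Ras and combined embryos. Their mean level was 5.77, 5.71 and 5.36 in late Notch arrays, 6.77, 7.27 and 5.52 in late Ras arrays, 5.16, 5.40 and 5.04 in late combined arrays and 7.51, 7.53 and 5.23 in late control arrays. Early arrays of the 4 crosses ran from 4.86 to 5.35. Late control replicate 3 was low for muscle. In that array each of the 9 members stood above every early control array. Among the replicate 3 arrays, the median difference of the 9 members from late control was -0.29, -0.39 and -0.38 in late Notch, Ras and combined embryos. Each median rests on 1 array per cross, set against the same control array. The matching value over all rows was not taken, so nothing is concluded from these medians. Mlc2, a myosin light chain, rose by 3.52 ± 0.82 in control embryos, and Mlc1 by 2.92 ± 0.87.

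Of 3 fat body genes with a probe set, apolpp, which encodes a lipoprotein precursor, was the one that reached the filter. It rose by 1.58 ± 0.16 in control embryos and was lower than late control in Notch (-1.02 ± 0.16) and combined embryos (-1.11 ± 0.16), with -0.09 ± 0.16 in Ras embryos. Unlike the members, apolpp was already called lower in early Notch (-0.81 ± 0.16, adjusted p = 0.0020) and early combined embryos (-0.92 ± 0.16, 0.00044). Its rise was 1.37 ± 0.16 in Notch and 1.39 ± 0.16 in combined embryos. The differences from the control rise (-0.21 and -0.19) were not called. Nor were those of any member in Notch embryos, or of members other than Eno and Pgm1 in combined embryos. In control embryos, 4 of 7 hemocyte genes rose (vkg by 1.92 ± 0.42, PPO1 by 1.60 ± 0.23). So did 2 of 4 genes listed as neuronal (fne by 2.11 ± 0.27, while jeb fell by 1.13) and 3 of 4 tracheal and cuticle genes (verm by 4.07 ± 0.45, Gasp by 2.28 ± 0.73, while btl fell by 0.71). Of 7 amnioserosa genes 3 fell (Doc3 by 0.93, Kr by 0.83), of 5 gut genes 1 did (hkb, by 0.94), and of 3 maternal or germline genes gcl rose by 0.97 ± 0.15 and aub fell by 0.36. In late Notch, Ras and combined embryos 4, 1 and 2 hemocyte genes, 3, 0 and 3 neuronal genes and 2, 0 and 2 tracheal and cuticle genes were lower than control, as were 1, 0 and 2 gut genes, 2, 0 and 2 amnioserosa genes and none of the maternal or germline genes. Others were higher than late control: crq and NimC4 among the hemocyte genes in Notch (0.81 ± 0.13 and 0.96 ± 0.12) and combined embryos (0.43 ± 0.13 and 0.43 ± 0.12), and btl among the tracheal genes in Notch, Ras and combined embryos (1.11, 0.94 and 1.42, each ± 0.18). Already in the early window btl was called higher in Notch (1.56 ± 0.18, adjusted p = 4.0e-06) and combined embryos (1.46 ± 0.18, 9.0e-06), and not in Ras embryos (0.26 ± 0.18). In late Ras embryos, the lower hemocyte gene was NimC4 (-0.48 ± 0.12). Of the neuronal list, jeb was higher than control in early Notch (0.98 ± 0.17) and early combined embryos (1.04 ± 0.17). Against early control, 2 neuronal, 4 amnioserosa and 2 gut genes and 1 muscle gene were lower in Notch embryos, and as many of each in combined embryos. Of all rows, 5.42% and 6.96% were called there in either direction. The part of these tissues in the changes of the 9 genes was not tested.

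The array holds control probe sets for GAPDH at the 3′ end, the middle and the 5′ end. Gapdh1 has a near relative in the genome, Gapdh2, which was not analysed here, and which of the pair these control sets or the Gapdh1 probe set read was not tested. The set at the 3′ end read 4.87, 4.63 and 4.60 in late Notch arrays, 6.44, 7.06 and 5.09 in late Ras arrays, 4.46, 4.93 and 5.66 in late combined arrays and 7.26, 7.43 and 5.57 in late control arrays, against 3.95, 3.90 and 3.56 in early control arrays. The middle and 5′ sets averaged 3.90 ± 1.20 and 3.75 ± 0.69 in late Ras arrays, against 3.67 ± 1.09 and 3.58 ± 0.61 in late control arrays (SD, n = 3), so neither mean was lower in Ras embryos. In late Notch (2.68 ± 0.19 and 3.09 ± 0.04) and late combined arrays (2.73 ± 0.22 and 3.04 ± 0.03) their means were below late control. The 3′ minus 5′ difference of these sets, a common sign of RNA quality, was 1.61 ± 0.15 in late Notch, 2.44 ± 0.46 in late Ras, 1.98 ± 0.58 in late combined and 3.17 ± 0.68 in late control arrays, against 0.76 ± 0.18 in early control arrays. Its mean was higher late than early in control embryos, and lower in each late transgenic cross than in late control, and the 5′ set was dim. For the control sets of actin the difference was 0.62 ± 0.22 in late Notch, 0.47 ± 0.14 in late Ras, 0.43 ± 0.16 in late combined and 0.64 ± 0.26 in late control arrays, against 0.61 ± 0.06 in early control arrays. The part of RNA quality in the changes was not tested.

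**Figure D4:**
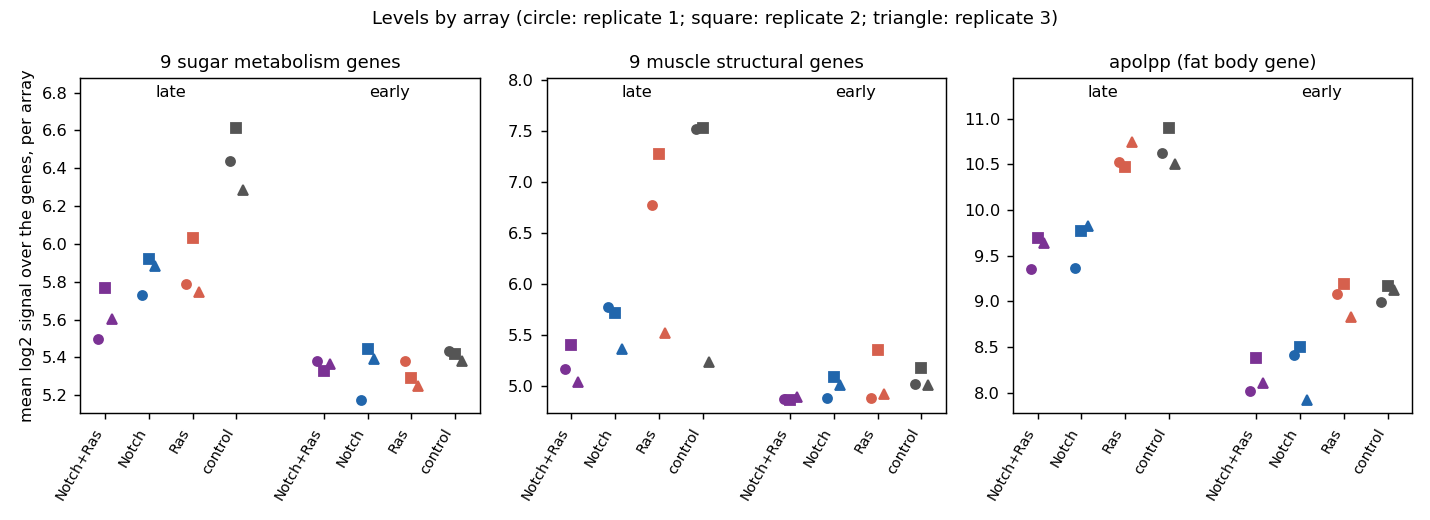
Mean log2 level per array (y axis, own scale in each panel) of the 9 members, of the 9 measured muscle genes and of apolpp, with crosses along the x axis, late left of early, and a marker shape for each replicate number. The late control array of replicate 3 is low for muscle (5.23, against 7.51 and 7.53) and less so for the members (6.28, against 6.44 and 6.61).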

How the data were processed

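RNA of whole embryos was measured on 24 arrays. The deposited values are log2 levels per probe set, and GCRMA and limma were used by the authors per the submitters' processing notes, in versions not given in the sources used here. By default GCRMA normalises arrays against each other and draws dim levels together, which understates changes of dim genes. Of 14010 probe sets, 44 Affymetrix control sets were left out. Probe sets were named from the platform annotation, where 12442 had 1 symbol, and 12393 were matched to RefSeq's gene table. Rows with a value of 5 or more in at least 3 arrays were kept, with the brightest probe set for each gene, which left 5736 rows (5020 with 1 symbol).

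The 8 group means were estimated in R 4.3.3 by limma 3.58.1 (lmFit, eBayes; 16 residual and 4.09 prior degrees of freedom), and 17 comparisons were taken from this fit, with p-values adjusted by Benjamini-Hochberg within each. Simulated data with known changes were used to test the script. Replicates came from independent experiments per the series' design text, and 3 arrays per group limit the precision. The spread is pooled over all groups. No 2 arrays held identical values.

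Replicate numbers were taken from the labels. Within a window, deviations of same-numbered arrays from their group means correlated in every pair of groups (0.16 to 0.69), and the design text speaks of parallel collections, so the numbers were taken to pair the arrays there. Across windows all 3 same-numbered pairs correlated above 0.1 in Ras (lowest 0.12) and combined embryos (lowest 0.10), and not in control (lowest 0.02) or Notch embryos (lowest 0.01). Alternatives were other normalisations, filters, variance priors and probe set choices, replicate blocks, other sets of arrays in the fit, and leaving out each array.

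The 9 members, the gene lists and the tests were chosen with earlier results of these data known. Named were all members; up to 5 called genes of each pathway list by the size of the control rise, or the 2 brightest where none was called; up to 2 called genes of each marker list; and the 8 genes most like the members. ERR, Gpdh1, sug, btl, crq, NimC4 and the dim glycolytic genes were named after their values were seen.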

Additional observations from a re-analysis of the deposited data

Results flagged for a closer look

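For Eno and Pgm1 the change between the windows differed between combined and control embryos by a direct test of that difference. For Eno it was lower in combined embryos by 1.04 log2 units (-1.04 ± 0.25, limma, adjusted p = 0.028), with a change of 0.73 in combined and 1.77 in control embryos. For Pgm1 it was lower by 1.36 (-1.36 ± 0.22, adjusted p = 0.0011), with -0.04 in combined and 1.31 in control embryos. The Pgm1 call held in every alternative tried, and the Eno call was lost without any 1 of 9 of the 12 arrays (adjusted p 0.051 to 0.092). Pgm1 passed the filter only through late control and late Notch arrays.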

How the results depend on the processing

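Over all comparisons 39 calls were made for the 9 genes, and 23 of them held in every alternative tried. Of 2754 recomputed values 82 lost a call, 54 gained one and none of a called gene changed sign. Counts of called genes moved by over 1.5 times, or away from 0, in these settings. When only the arrays compared were fitted, 3 genes were called late against early in Ras embryos, 1 early in combined, 3 late in Notch and 1 late in Ras embryos against control, 1 in the difference of the Notch rise from control and 1 in Ras against Notch. In a fit of each window alone the counts were 1 for early combined, 3 for late Notch and 1 for combined against Notch. With the replicate block within each window, the difference of the rise from control was called for 2 genes in Notch, 1 in Ras and 5 in combined embryos, and 1 was called for combined against Ras and 1 for the interaction. The paired fit changed no other call than those printed beside the results, apart from Hex-A between windows in Notch embryos (adjusted p = 0.039). Across windows same-numbered arrays correlated in Ras and combined embryos and not in control or Notch embryos. The replicate block across windows changed no call of the rise in any cross, and gave 2 for the Notch and 1 for the Ras difference of the rise. Without replicate 3 of all 4 late groups, an alternative chosen after seeing the data, the counts were 2 and 4 for the Notch and combined difference of the rise, 1 for combined against Notch and 1 for combined against Ras. For Ras against Notch, quantile normalisation and a filter at 4 gave 1 each. The cause of these moves was not tested. Shares of all rows called are not given for these settings or with 1 array left out. The counts of members under them therefore have no background beside them. With 1 array left out, the counts ran from 7 to 9 for the control rise, 2 to 3 for Notch, 3 to 5 for Ras and 1 to 2 for combined embryos. Late against control they ran from 2 to 6 for Notch, 3 to 4 for Ras and 4 to 8 for combined embryos, and early they stayed at 0. For the difference of the rise they ran from 0 to 2, 0 to 1 and 1 to 5 in Notch, Ras and combined embryos. They ran from 1 to 2 for combined against Notch, 0 to 1 for combined against Ras, 1 to 2 for Ras against Notch, and stayed at 0 for the interaction. The late Notch count was 3, 2, 2 and 3 without control replicate 1, control replicate 2, Notch replicate 1 and Notch replicate 3. Signals of fbp, Hex-A, Pgk and Pgm1 were below 5 in most arrays, which limits how well their changes are measured.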
